A study of Homo sapiens with 6 samples.

Results

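Of the 58735 genes in a count table of PANC-1 cells, 9 encode core components of transforming growth factor beta (TGF-beta) and SMAD signalling, and these are described here. They were found as the rows whose gene name was TGFB1, TGFB2, TGFBR1, TGFBR2, SMAD2, SMAD3, SMAD4, SMAD7 or SKIL. The rows were matched by name alone, but the genes were chosen with earlier results of these data known. PANC-1 is an established cell line from a human pancreatic ductal adenocarcinoma. The methods describe the cells as stably transfected, and the labels as transfected, with control siRNA (si-NC, 3 samples) or with siRNA against METTL16 (si-METTL16, 3 samples), an RNA methyltransferase that writes N6-methyladenosine. Both groups were the same line grown in the same serum-containing medium, and the labels name no added ligand. The control samples carry the word WT in 1 label field and si-NC in their titles, and the titles were followed. Because a single line was used, the values describe PANC-1 and not other pancreatic cancer cells, and a replicate is a separate sample of that line, described in the methods as biological.

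TGF-beta ligands are secreted in latent form and, once freed, bind the type II receptor TGFBR2, which then phosphorylates the type I receptor TGFBR1. TGFBR1 phosphorylates SMAD2 and SMAD3, which join SMAD4 and enter the nucleus to regulate transcription. SMAD7 and SKIL (SnoN) restrain the pathway, the former at the receptor and the latter as a corepressor bound to the SMADs, and both are themselves induced by the signal. In pancreatic ductal cells the pathway is known for arresting growth and for driving epithelial-mesenchymal transition, and SMAD4 is among the genes most often lost in pancreatic cancer.

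Promoters are printed for the 3 members that passed the test below (TGFB2, TGFBR2 and SKIL) and for SMAD7, the other feedback inhibitor. The letters of a SMAD-binding core are marked in them. Each is the stretch from 250 bases before to 50 bases after the start site in RefSeq on GRCh38.p14, written 5′ to 3′ on the strand of the gene. Capitals mark CAGAC, the core bound by SMAD3 and SMAD4, on either strand (GTCTG on the other) and TGACGTCA, the palindromic cyclic AMP response element.
TGFB2, chr1:218345086-218345385 (plus strand): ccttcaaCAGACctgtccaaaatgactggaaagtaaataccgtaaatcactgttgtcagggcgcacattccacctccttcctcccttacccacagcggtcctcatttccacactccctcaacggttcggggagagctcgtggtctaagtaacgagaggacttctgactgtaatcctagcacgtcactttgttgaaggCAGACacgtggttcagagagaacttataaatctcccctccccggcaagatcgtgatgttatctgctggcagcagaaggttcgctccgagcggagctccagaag
TGFBR2, chr3:30606351-30606650 (plus strand): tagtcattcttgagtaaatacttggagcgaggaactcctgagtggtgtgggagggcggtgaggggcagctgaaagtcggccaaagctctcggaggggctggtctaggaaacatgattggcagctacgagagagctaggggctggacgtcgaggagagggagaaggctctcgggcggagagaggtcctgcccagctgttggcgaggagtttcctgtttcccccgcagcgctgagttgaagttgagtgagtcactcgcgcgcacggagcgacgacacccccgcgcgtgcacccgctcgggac
SKIL, chr3:170357465-170357764 (plus strand): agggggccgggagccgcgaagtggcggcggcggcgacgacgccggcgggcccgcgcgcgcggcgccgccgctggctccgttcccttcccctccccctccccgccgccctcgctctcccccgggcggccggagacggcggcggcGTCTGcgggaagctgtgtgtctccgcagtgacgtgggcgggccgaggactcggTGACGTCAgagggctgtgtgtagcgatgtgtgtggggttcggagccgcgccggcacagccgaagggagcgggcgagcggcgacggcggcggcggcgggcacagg
SMAD7, chr18:48950916-48951215 (minus strand): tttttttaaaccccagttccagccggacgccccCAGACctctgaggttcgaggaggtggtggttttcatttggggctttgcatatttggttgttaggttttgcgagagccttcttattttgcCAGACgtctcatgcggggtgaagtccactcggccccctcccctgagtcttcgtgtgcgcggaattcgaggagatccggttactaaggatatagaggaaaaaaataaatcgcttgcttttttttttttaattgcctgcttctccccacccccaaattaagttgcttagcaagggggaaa

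CAGAC stood at positions -243 and -53 from the start site in the TGFB2 window, and at -217 and -128 in that of SMAD7. The SKIL window held it on the opposite strand, at -107, and also held TGACGTCA at -54. Neither string was found in the TGFBR2 window. Of the other members, TGFBR1 and SMAD3 each held CAGAC at 1 position, and TGFB1, SMAD2 and SMAD4 at none. CAGAC is short and common, and 45.3% of all 35116 promoter windows of this length held it, against 1.85% for TGACGTCA. Its presence in some member windows and absence from others is therefore not read as a trait of these genes. Both strings were searched on both strands. They do not overlap each other, and a match in these letters is not a measured binding site.

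The counts summed to between 15725298 and 18054436 per sample. METTL16 itself had 1546, 1641 and 1764 counts in si-NC and 571, 528 and 627 in si-METTL16 replicates 1, 2 and 3, which left 35.9% of the control level. Levels below are FPKM as deposited by the authors, the count divided by a gene length and by the total of the sample. Differences are log2 fold changes of si-METTL16 over si-NC from edgeR's quasi-likelihood test on the counts, with the standard error (SE) and a p-value adjusted by Benjamini-Hochberg over all 15089 genes that had enough counts, and a gene is called where that adjusted p is under 0.05. All 9 members had enough counts to be tested.

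Between the groups, TGFB2 and TGFBR2 rose and SKIL fell, while TGFB1, TGFBR1, SMAD2, SMAD3, SMAD4 and SMAD7 did not pass the test. So 3 of 9 members were called, 2 higher and 1 lower. Over all genes tested, 35.9% were called, 18.4% as higher and 17.5% as lower, so that the number of members called was close to that background. In 4 of the 9 members (TGFB2, TGFBR2, SMAD2 and SKIL) the samples of the groups did not overlap in CPM, counts scaled to a common total, and this held for 50.9% of all tested genes. The median log2 fold change was 0.04 over the members and -0.00 over all tested genes. In bulk samples like these, fewer cells of a kind and less RNA per cell cannot be told apart, and this holds for each difference that follows.

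**Figure D1:**
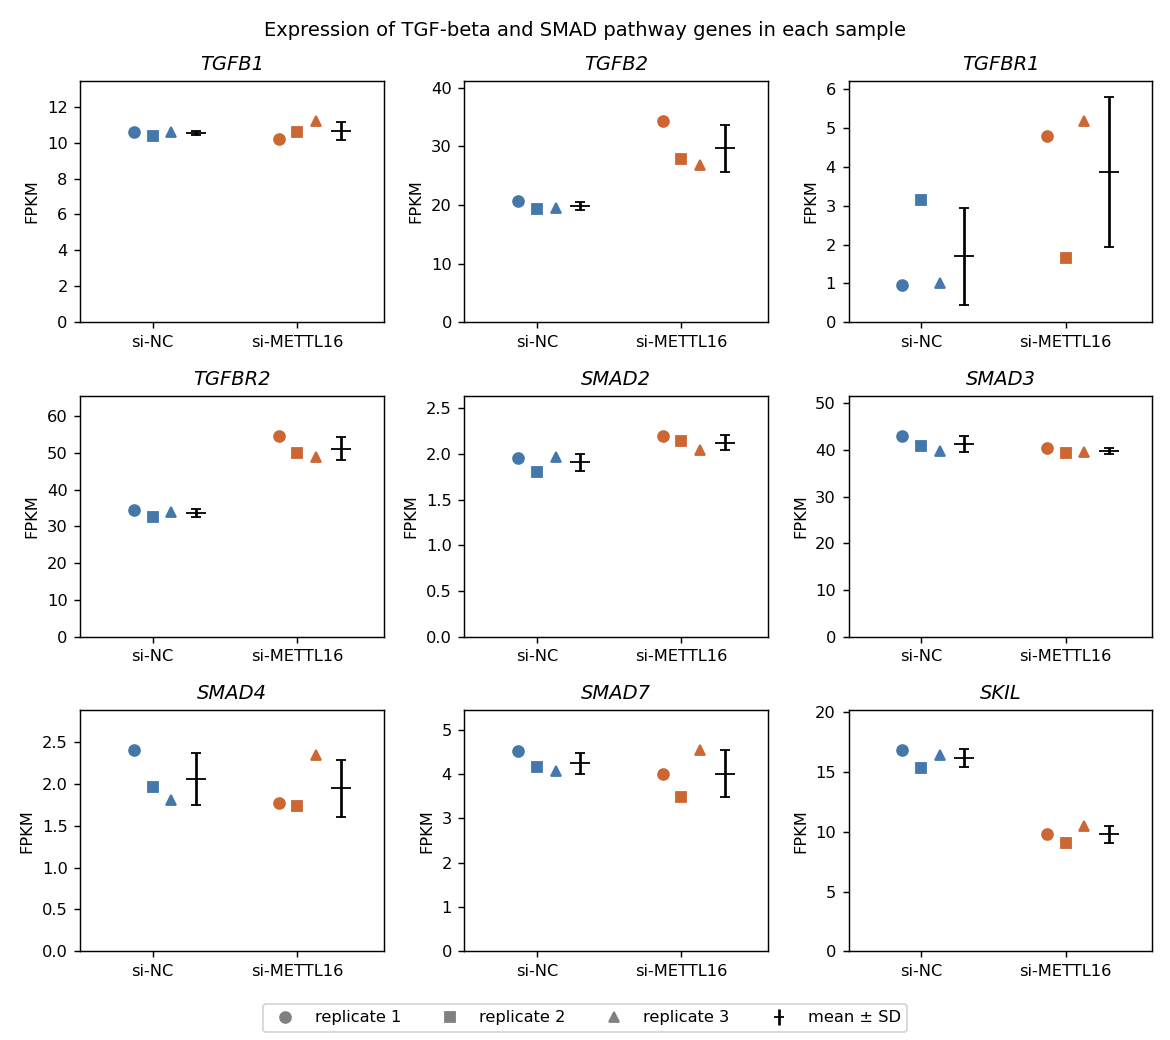
FPKM (vertical axis, from 0, 1 panel per gene) of the 9 members in each of the 3 si-NC and 3 si-METTL16 samples; points are samples, and bars mark the mean with its SD (n = 3 per group). The groups stand apart for TGFB2, TGFBR2, SMAD2 and SKIL, and the samples of TGFBR1 are scattered in both groups.

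Of the ligands, TGFB2 had FPKM values of 20.7, 19.3 and 19.5 in si-NC replicates 1, 2 and 3 and of 34.3, 27.9 and 26.9 in the si-METTL16 replicates. The lowest si-METTL16 sample was above every si-NC sample, and si-METTL16 replicate 1 was the highest. The mean was 19.8 ± 0.749 in si-NC and 29.7 ± 4.01 in si-METTL16 (SD, n = 3 each), a log2 fold change of 0.60 (SE 0.10, adjusted p = 0.00384, edgeR's quasi-likelihood test), or 152% of the control level. Without si-METTL16 replicate 1 the log2 fold change was 0.48, and TGFB2 was called whichever of the 6 samples was omitted.

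TGFB1, the founding member of the ligand family, had FPKM values of 10.6, 10.4 and 10.6 in si-NC and of 10.2, 10.6 and 11.2 in si-METTL16. The groups overlapped. The log2 fold change of 0.04 had a 95% interval from -0.13 to 0.21. The gene body of TGFB1 overlaps 2 well-expressed genes on the opposite strand, HNRNPUL1 over 6012 bases and CCDC97 over 14695 bases. Over the 6 samples HNRNPUL1 had 684% of the counts of TGFB1 and rose (log2 fold change 0.35, adjusted p = 0.00199, edgeR's quasi-likelihood test), and CCDC97 had 79.6%. Whether counting used strand is not given in the sources used here, so reads from these genes and from TGFB1 may not have been told apart. Within the samples, the ratio of TGFB2 to TGFB1 in FPKM was 1.89 ± 0.0652 in si-NC and 2.80 ± 0.5 in si-METTL16, 1.47-fold higher, with no overlap between the groups.

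The type II receptor gene TGFBR2 was the more strongly expressed of the 2 receptors. Its FPKM was 34.5, 32.4 and 33.8 in si-NC and 54.6, 49.8 and 48.8 in si-METTL16. Every si-METTL16 sample was above every si-NC sample, with a gap wider than the range within either group. The mean went from 33.6 ± 1.09 to 51.0 ± 3.11 (SD, n = 3 each), 154% of the control level, and the log2 fold change was 0.63 (SE 0.06, adjusted p = 0.000507, edgeR's quasi-likelihood test).

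TGFBR1, the type I receptor that phosphorylates the SMADs, had the most scattered values of the 9. Its FPKM was 0.958, 3.14 and 1.0 in si-NC and 4.79, 1.66 and 5.18 in si-METTL16, from 291, 958 and 315 counts and from 1442, 471 and 1691 counts. In each group 1 sample lay far from its companions: si-NC replicate 2 was above si-METTL16 replicate 2, so the groups overlapped. The log2 fold change was 1.21 (SE 0.58), with a 95% interval from -0.14 to 2.57 and an adjusted p of 0.143 in edgeR's quasi-likelihood test. Without si-NC replicate 2 it was 2.00 with an adjusted p of 0.0269, the single fit of the 6 that left out a sample in which TGFBR1 was called. The range over those fits was 0.92 to 2.00, and their adjusted p reached 0.317.

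The highest TGFBR1 sample exceeded the lowest by 3.26-fold in si-NC and by 3.11-fold in si-METTL16 on the CPM scale. The SD of log2 CPM within a group was 0.968 and 0.917, above that of 99.5% and 99.2% of the 7545 tested genes at or above the median level. In the same samples the highest TGFBR2 value exceeded the lowest by 1.07-fold in si-NC and by 1.13-fold in si-METTL16. The cause of the TGFBR1 scatter was not tested. The ratio of TGFBR1 to TGFBR2 was 0.0514 ± 0.0394 in si-NC and 0.0757 ± 0.0379 in si-METTL16, and its groups overlapped. The log2 difference of this ratio was 0.65, and 1.24 without si-NC replicate 2, the highest of its group, with a range of 0.33 to 1.24 over the omitted samples.

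Among the SMADs, SMAD3 was the highest of the 9 members by FPKM, at 43.0, 40.9 and 39.8 in si-NC and 40.4, 39.3 and 39.6 in si-METTL16. The groups overlapped. Its log2 fold change of -0.03 had the narrowest interval among the members, from -0.15 to 0.09 (adjusted p = 0.668, edgeR's quasi-likelihood test).

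SMAD2, which shares the receptor-activated role with SMAD3, had FPKM values of 1.96, 1.80 and 1.97 in si-NC and of 2.20, 2.14 and 2.04 in si-METTL16. The si-METTL16 samples were all above the si-NC samples, by a small margin. The log2 fold change was 0.18 (SE 0.07), and its adjusted p of 0.0733 in edgeR's quasi-likelihood test did not pass. The ratio of SMAD3 to SMAD2 was 21.6 ± 1.26 in si-NC and 18.7 ± 0.576 in si-METTL16, 0.866 of the control ratio, with no overlap between the groups. The size of this ratio depends on gene length, and in CPM the si-NC means were 538 for SMAD3 and 110 for SMAD2.

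SMAD4, the common partner of both, was transcribed in every sample. Its FPKM was 2.40, 1.96 and 1.81 in si-NC and 1.77, 1.73 and 2.34 in si-METTL16. Each group had 1 sample above its companions, and the groups overlapped almost fully. The log2 fold change was -0.06 with a 95% interval from -0.41 to 0.30 (adjusted p = 0.799, edgeR's quasi-likelihood test). It turned above 0 without si-NC replicate 1 (0.07), without si-METTL16 replicate 1 (0.0006) and without si-METTL16 replicate 2 (0.02).

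Of the inhibitors, SKIL had the smallest adjusted p of the members. Its FPKM was 16.8, 15.3 and 16.4 in si-NC and 9.81, 9.07 and 10.5 in si-METTL16. All 3 si-METTL16 samples were below all si-NC samples, and replicate 2 was the lowest of its group in both. The mean fell from 16.2 ± 0.782 to 9.79 ± 0.707 (SD, n = 3 each), 61.3% of the control level, with a log2 fold change of -0.71 (SE 0.07, adjusted p = 0.000498, edgeR's quasi-likelihood test). The ratio of SKIL to SMAD4, the corepressor to a SMAD it binds, was 7.97 ± 1.04 in si-NC and 5.08 ± 0.545 in si-METTL16, 0.638 of the control ratio and without overlap.

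SMAD7, the other feedback inhibitor, showed no such difference. It had FPKM values of 4.51, 4.15 and 4.07 in si-NC and of 4.0, 3.47 and 4.53 in si-METTL16. The si-METTL16 samples held both the lowest and the highest value of the 6. Its log2 fold change of -0.06 had a 95% interval from -0.33 to 0.20 (adjusted p = 0.685, edgeR's quasi-likelihood test) and was 0.03 without si-METTL16 replicate 2. The ratio of SMAD7 to SMAD3 was 0.103 ± 0.00173 in si-NC and 0.101 ± 0.0133 in si-METTL16.

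The 5 ratios above were compared as log2 ratios by a two-sided exact permutation test, in which 3 samples against 3 cannot go below p = 0.1. The 3 ratios whose groups did not overlap (TGFB2 to TGFB1, SMAD3 to SMAD2 and SKIL to SMAD4) gave that smallest exact p of 0.1, which was 0.167 after Benjamini-Hochberg adjustment over the 5. Groups without overlap always give that p, so the test adds nothing to the lack of overlap. The log2 differences of TGFB2 to TGFB1 (0.55) and SKIL to SMAD4 (-0.65) largely repeat those of TGFB2 (0.60) and SKIL (-0.71) alone. TGFBR1 to TGFBR2 gave an exact p of 0.3 (0.375 adjusted) and SMAD7 to SMAD3 an exact p of 0.7 (0.7 adjusted).

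**Figure D2:**
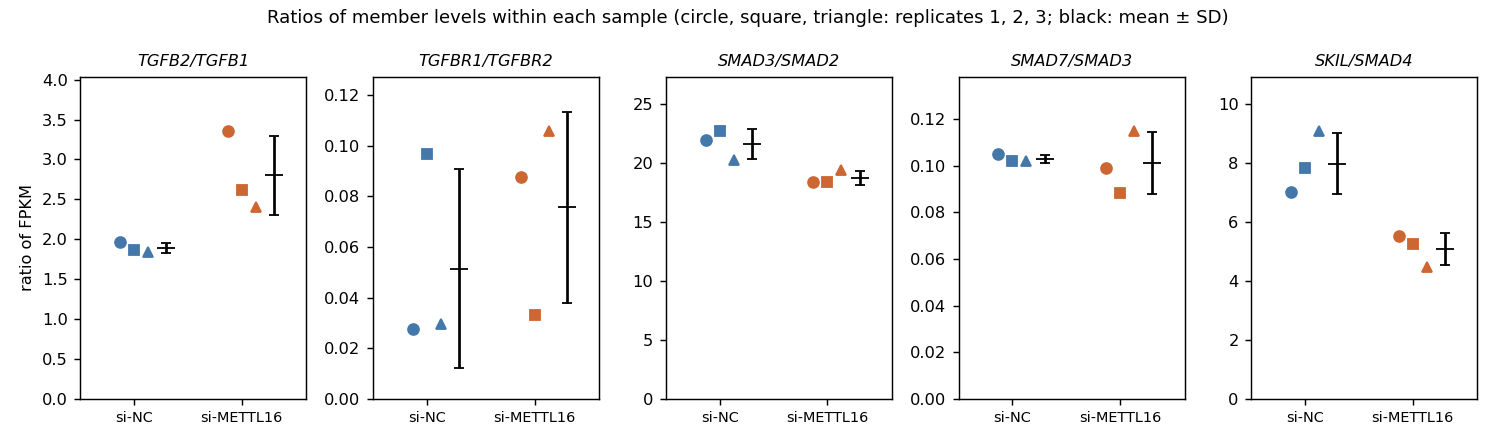
Ratio of 2 members' FPKM within each sample (vertical axis, 1 panel per ratio), with points for the 3 si-NC and 3 si-METTL16 samples and bars for the mean with its SD. The groups stand apart for TGFB2 to TGFB1, SMAD3 to SMAD2 and SKIL to SMAD4, and overlap for TGFBR1 to TGFBR2 and SMAD7 to SMAD3.

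By FPKM in si-NC, the order of the members was SMAD3, TGFBR2, TGFB2, SKIL, TGFB1, SMAD7, SMAD4, SMAD2 and TGFBR1, the last 3 of which did not differ beyond their spread. The other neighbours in that order were separated by more than the sum of their SDs. This order depends on the gene length behind the FPKM, which was worked out from the counts, the FPKM and the library totals. It was 1.08 (TGFB2) to 3.24 (SMAD7) times that of the MANE Select transcript, the agreed reference transcript of each gene. With the counts divided by the MANE Select length instead, per kilobase and scaled to the library total as FPKM is, the si-NC means were 83.8 for SMAD3, 57.8 for TGFBR2, 33.7 for SKIL and 21.5 for TGFB2. On that scale SMAD7 at 13.8 ± 0.763 was level with TGFB1 at 13.7 ± 0.132, and the lowest were SMAD4 at 5.97 ± 0.891, TGFBR1 at 4.73 ± 3.47 and SMAD2 at 3.21 ± 0.16. On both length scales SMAD3 and TGFBR2 led, SMAD4, SMAD2 and TGFBR1 were lowest, and SMAD3 was above SMAD2. The low place of SMAD2 rests on its length, 34626 bases in MANE Select against 2780 to 8772 in the other members. In CPM, which is not divided by length, the si-NC mean of SMAD2 was 110. That was above SMAD4 (52.1), SMAD7 (45.7), TGFB1 (37.9) and TGFBR1 (30.5), and below SMAD3 (538). SKIL and TGFB2 changed places.

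**Figure D3:**
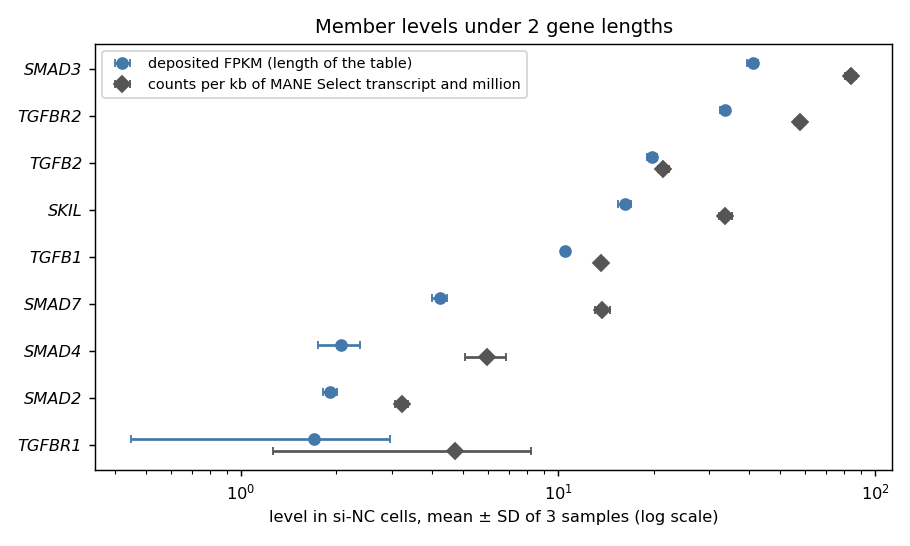
Level of the 9 members in the si-NC samples on a log axis, as deposited FPKM and as counts per kilobase of the MANE Select transcript scaled to the same library total; points are means of 3 samples with their SD. SMAD3 and TGFBR2 are highest on both scales, and SMAD7 moves up to the level of TGFB1 on the second.

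In the table, on GRCh38 per the submitters' processing notes, the ligand genes span chr19:41301587-41353911 (TGFB1) and chr1:218346235-218444619 (TGFB2), and the receptor genes chr9:99104038-99154192 (TGFBR1) and chr3:30606502-30694142 (TGFBR2). SMAD3 lies at chr15:67063763-67195195 and SKIL at chr3:170357678-170396835. Whole-gene counts were given, so no exon, intron or UTR can be assigned to a difference. The start and end of 2 of the 9 genes (TGFBR1 and SMAD2) equal those of GENCODE v44.

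SMAD2, SMAD7 and SMAD4 lie together on the long arm of chromosome 18, at chr18:47808957-47931146, chr18:48919853-48952052 and chr18:51028394-51085045. None of the 3 was called. From the start of SMAD2 to the end of SMAD4 (3.28 Mb), the table lists 75 genes, and 16 besides the members had enough counts. Of these 16, SKA1 rose (log2 fold change 1.26), and RPL17 (-0.31), ACAA2 (-0.68) and ME2 (-0.48) fell. Over all tested genes 18.4% rose and 17.5% fell, so these counts in a short list are not read as a trait of the region. These 4 are all of the called genes there and were named after their values were seen. Reads of RPL17 may be shared with its processed copies elsewhere. The median log2 fold change of the 16 was -0.25. The number of lower genes was 1 without si-NC replicate 2 or without si-METTL16 replicate 3, and the number of higher genes was 2 without si-NC replicate 3.

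A wider set of 100 genes of the pathway was listed by role from general knowledge, with earlier results of these data known. Of the 100, 81 had enough counts. Of these, 22 rose, 14 fell and 45 were not called, and the groups did not overlap in 51. Over all tested genes, 18.4% rose, 17.5% fell and 50.9% did not overlap. The lists by role that follow are small, and the counts in each stand beside these same shares. Their median log2 fold change was 0.11. Without the transcriptional targets and the cytostatic genes, 52 were tested, 8 rose and 8 fell, with a median of 0.02.

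**Figure D4:**
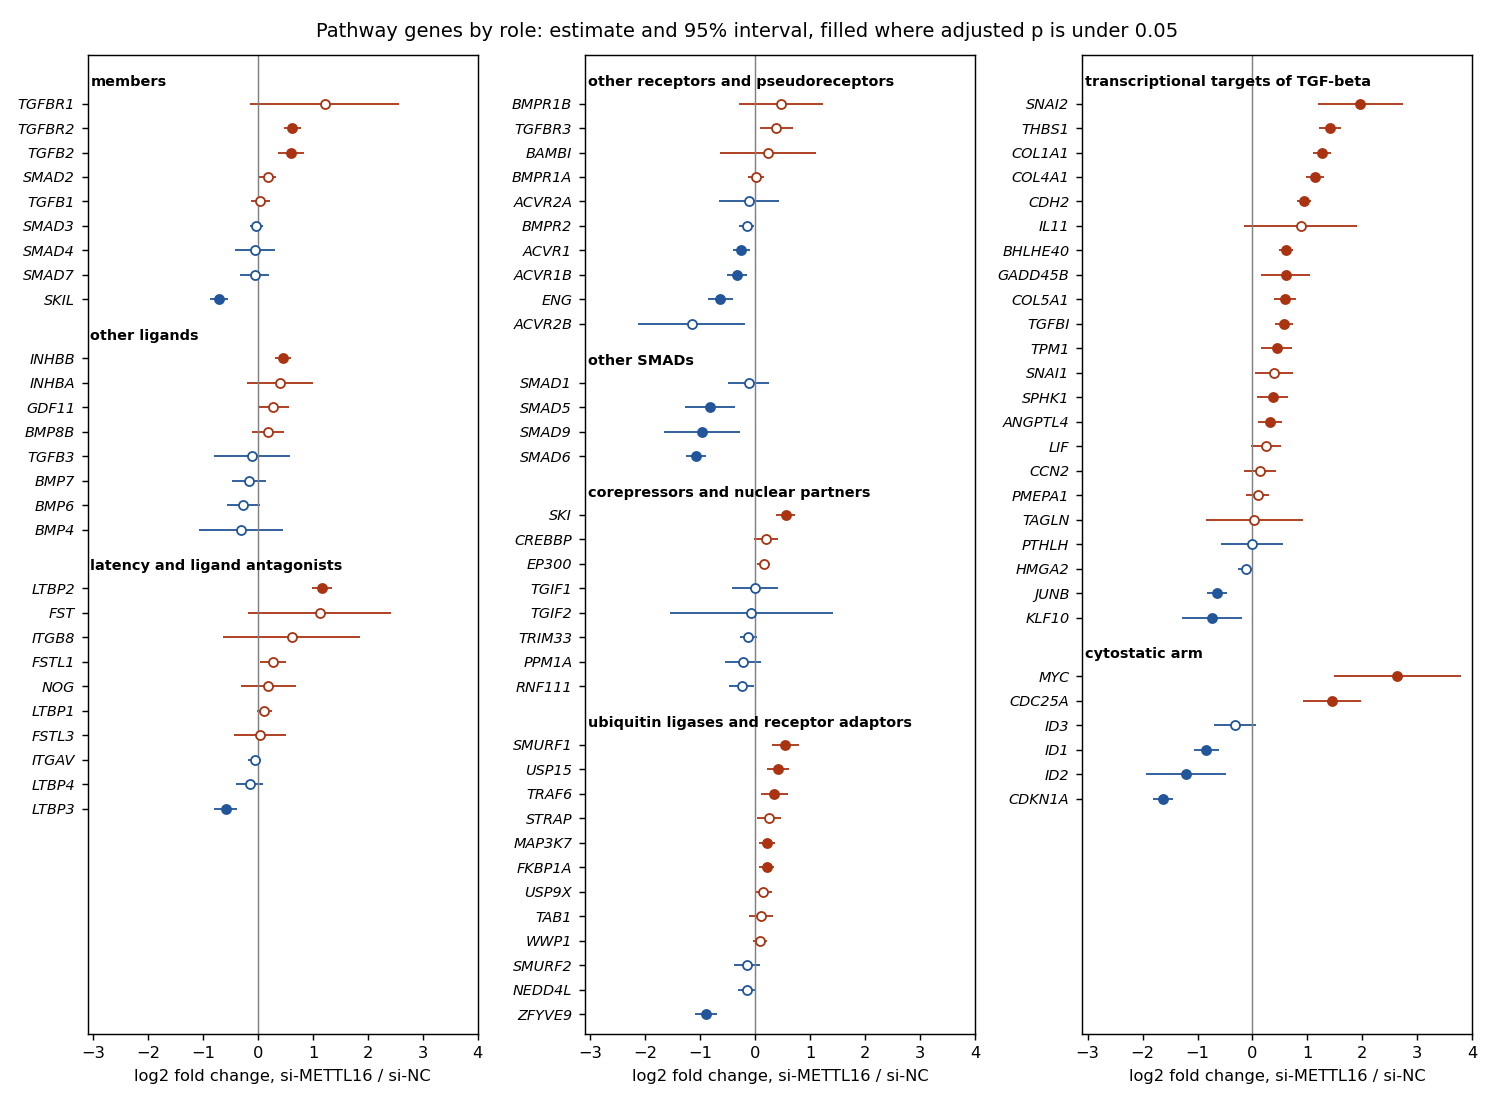
Log2 fold change of si-METTL16 over si-NC (horizontal axis) of the members and the other tested pathway genes that are reported, grouped by role, with 95% intervals from edgeR's quasi-likelihood fit and filled points for genes called at an adjusted p under 0.05. Among the targets 12 of 23 were called higher, against 18.4% of all tested genes, and the 3 called SMADs other than the members lie below 0. The lists were written with earlier results of these data known, so these counts are a description.

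Upstream of the receptors, 1 of 8 other ligands was called. INHBB, the beta B subunit of the activins and inhibins, rose from an FPKM of 40.9 ± 1.22 to 55.0 ± 3.27 (log2 fold change 0.45, adjusted p = 0.00172, edgeR's quasi-likelihood test). The other 7, TGFB3 among them, had log2 fold changes from -0.31 to 0.39. Of 10 genes for latency or ligand antagonists, 1 rose and 1 fell, both of them latent TGF-beta binding protein genes. LTBP2 rose from 3.82 ± 0.198 to 8.43 ± 0.503 FPKM (log2 fold change 1.16, adjusted p = 0.000125), and LTBP3 fell from 6.55 ± 0.517 to 4.28 ± 0.366 (-0.59, adjusted p = 0.00277, both from edgeR's quasi-likelihood test).

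Of 10 other receptors and pseudoreceptors, 3 fell and none rose (17.5% and 18.4% of all tested genes), with a median log2 fold change of -0.14. They were ENG, the accessory receptor endoglin, from 5.29 ± 0.326 to 3.35 ± 0.281 FPKM (-0.63), ACVR1B, the type I receptor of activin, from 7.33 ± 0.428 to 5.72 ± 0.195 (-0.34), and ACVR1, a type I receptor used by bone morphogenetic proteins (BMPs), from 9.55 ± 0.186 to 7.91 ± 0.0545 (-0.25). Thus TGFBR2 was the single receptor gene called higher among the members and this list. The call for ACVR1 was lost in 2 of the 6 fits with a sample omitted.

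Of the 4 other SMADs tested, 3 fell (17.5% of all tested genes) and 1 was not called, with a median log2 fold change of -0.90. SMAD6, the inhibitory SMAD of the BMP branch, had FPKM values of 6.47, 6.46 and 7.29 in si-NC and of 3.17, 3.09 and 3.21 in si-METTL16. The groups were far apart and the si-METTL16 samples were within a narrow band. Its log2 fold change was -1.07 (SE 0.08, adjusted p = 0.000165, edgeR's quasi-likelihood test), whereas that of SMAD7 was -0.06. SMAD5, a receptor-activated SMAD of the BMP branch, went from 7.16 ± 0.241 FPKM to 3.12, 5.43 and 3.43 (-0.82, SE 0.20, adjusted p = 0.0158), and was called in 5 of the 6 fits with a sample omitted. SMAD9 was low, with 39, 50 and 30 counts against 16, 19 and 24 (-0.97, adjusted p = 0.0373). It was called in 1 of those 6 fits, and its adjusted p ranged from 0.0262 to 0.12 over all alternatives of edgeR, DESeq2 and limma. SMAD1 was not called (-0.12).

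Of 8 corepressors and nuclear partners, SKI, the paralog of SKIL, was the single gene called. It rose from 12.9 ± 0.997 to 18.6 ± 0.677 FPKM (log2 fold change 0.55, SE 0.08, adjusted p = 0.00159, edgeR's quasi-likelihood test), opposite in sign to the -0.71 of SKIL. Both calls held in all 6 fits that left out a sample.

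Of 12 ubiquitin ligases and receptor adaptors, 5 rose and 1 fell (18.4% and 17.5% of all tested genes). SMURF1, a ligase that SMAD7 brings to the receptor, rose from 6.12 ± 0.492 to 8.78 ± 0.979 FPKM (0.54, adjusted p = 0.00679), and USP15, a deubiquitinase of the receptor complex, from 2.48 ± 0.176 to 3.26 ± 0.252 (0.42, adjusted p = 0.00886, both from edgeR's quasi-likelihood test). TRAF6, a ligase of the SMAD-independent branch, rose by 0.35 with an adjusted p of 0.04 in edgeR's quasi-likelihood test, and was called in 1 of the 6 fits with a sample omitted. Over all alternatives of edgeR, DESeq2 and limma its adjusted p ranged from 0.031 to 0.114. FKBP1A and MAP3K7 rose by 0.21 each on the log2 scale. ZFYVE9 (SARA), which presents SMAD2 and SMAD3 to the receptor, fell from 9.53 ± 0.0963 to 5.07 ± 0.445 FPKM (-0.89, adjusted p = 0.000419). SMURF1 overlaps TRRAP, and ZFYVE9 overlaps CC2D1B, on the opposite strand, so part of their counts is uncertain.

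Of 23 transcriptional targets of TGF-beta that were tested, 12 rose, 3 fell and 8 were not called, with a median log2 fold change of 0.39. The groups did not overlap for 17. Over all tested genes 18.4% rose, 17.5% fell and 50.9% did not overlap. Because the list was written with earlier results of these data known, its counts are not read as a trait of TGF-beta targets. The 3 largest rises were in SNAI2, THBS1 and COL1A1. THBS1, thrombospondin 1, which also activates latent TGF-beta, had FPKM values of 4.19, 4.23 and 3.80 in si-NC and of 10.0, 11.6 and 10.4 in si-METTL16. COL1A1, a chain of type I collagen, had 25.0, 28.9 and 25.1 against 60.8, 62.1 and 64.4. In both genes the groups were far apart, with little spread inside either. The log2 fold changes were 1.41 for THBS1 (adjusted p = 0.000111) and 1.27 for COL1A1 (adjusted p = 9.39e-05, both from edgeR's quasi-likelihood test). SNAI2, a transcription factor of epithelial-mesenchymal transition, was low, with 44, 36 and 33 counts against 80, 170 and 179 (1.96, SE 0.33, adjusted p = 0.00384). The other 9 that rose (TGFBI, BHLHE40, GADD45B, COL4A1, COL5A1, ANGPTL4, TPM1, SPHK1 and CDH2) had log2 fold changes from 0.32 to 1.14.

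Among the targets that fell were JUNB and KLF10. JUNB, an AP-1 subunit, fell from 35.9 ± 2.18 to 22.7 ± 1.15 (-0.64, adjusted p = 0.00107, edgeR's quasi-likelihood test), and overlaps HOOK2 on the opposite strand. KLF10, an early response gene, went from 30.7 ± 1.16 to 14.7, 13.6 and 26.1 (-0.74, adjusted p = 0.0428), with si-METTL16 replicate 3 near the controls, and its call held in 1 of the 6 fits with a sample omitted. CCN2, listed as CTGF in the table, was not called, at 94.3 ± 13.4 and 102 ± 12.0 FPKM. FN1, COL1A2, ACTA2 and NEDD9 had too few counts, with a mean FPKM of at most 0.0278.

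In the cytostatic arm, through which the pathway arrests the cell cycle, 2 of 6 tested genes rose and 3 fell. The median log2 fold change was -0.58, and over all tested genes 18.4% rose and 17.5% fell. CDC25A, a phosphatase that drives entry into S phase, rose from 2.11 ± 0.273 to 5.65 ± 1.71 FPKM (1.44, SE 0.23, adjusted p = 0.00287, edgeR's quasi-likelihood test). MYC, a driver of growth, had 141, 356 and 81 counts in si-NC and 1353, 1129 and 1011 in si-METTL16, so the groups were apart and the si-NC samples scattered. It rose by 2.64 on the log2 scale (SE 0.49, adjusted p = 0.00607, edgeR's quasi-likelihood test), and by 3.43 without si-NC replicate 2, with a range of 2.26 to 3.43 over the fits with a sample omitted. CDKN1A fell (-1.63), and CDKN2B, the p15 inhibitor, was not transcribed at a testable level, with a mean FPKM of at most 0.00679. ID1, an inhibitor of differentiation, had 103, 112 and 123 FPKM in si-NC and 54.6, 63.4 and 68.3 in si-METTL16, without overlap. Its log2 fold change was -0.84 (adjusted p = 0.000908, edgeR's quasi-likelihood test). ID2 had 6.17, 3.01 and 6.79 against 2.32, 1.81 and 2.70. It fell by 1.20 on the log2 scale (adjusted p = 0.0208, edgeR's quasi-likelihood test), and its call held in 2 of the 6 fits with a sample omitted. ID3 was not called (-0.32, adjusted p = 0.166).

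Markers of ductal epithelium were read for the label of the cells. KRT8 and KRT18 were high, at 151 and 175 FPKM in si-NC, and EPCAM was low at 1.82. Of the 7 ductal and epithelial markers tested, 4 fell (KRT7, KRT19, SOX9 and CDH1) and none rose, against 17.5% and 18.4% of all tested genes. None of 6 acinar, 3 endocrine, 4 fibroblast and stellate or 3 endothelial markers had enough counts. Of the leukocyte markers, PTPRC was at most at 0.0237 FPKM and CD3E at 0 in every sample, while CD68 was at 1.18 FPKM and CD14 at 0.863 in si-NC. CD68 was called higher and CD14 lower in si-METTL16. The part of these marker differences in those of the pathway genes was not tested.

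The genes whose log2 CPM followed that of SKIL most closely over the 6 samples, among 7544 tested genes at or above the median level, were TRIP10 (Pearson's r = 0.9987), TTYH3 (0.9979) and OIP5-AS1 (0.9979). The r values describe a pattern shared by many genes that differed between the groups, since 64 genes had an r of at least 0.99. These 3 genes had log2 fold changes of -0.73, -0.71 and -1.18.

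Leaving out each sample in turn changed the call of 1 member. TGFB2 (0.48 to 0.68), TGFBR2 (0.57 to 0.66) and SKIL (-0.75 to -0.66) were called in all 6 fits, TGFBR1 in 1 of 6, and TGFB1, SMAD2, SMAD3, SMAD4 and SMAD7 in none.

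**Figure D5:**
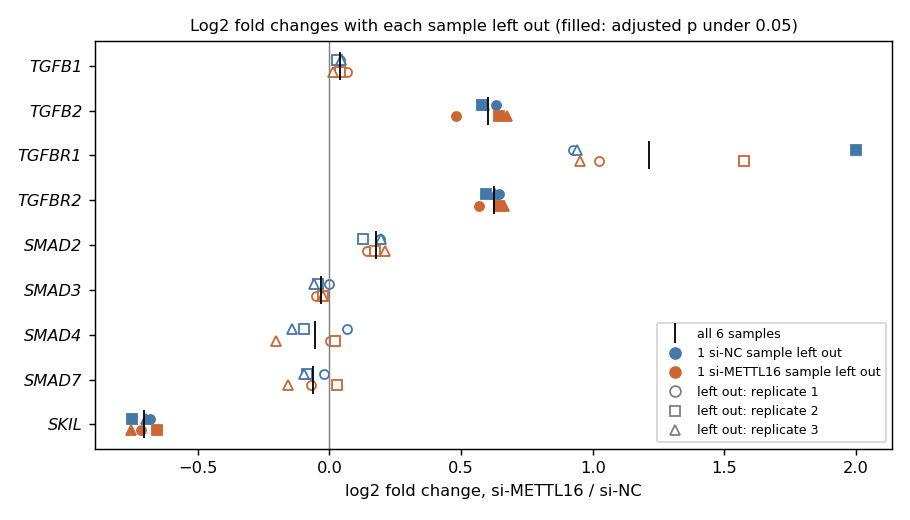
Log2 fold change of si-METTL16 over si-NC (horizontal axis) of each member over all 6 samples and in the 6 fits that left out 1 sample, filled where the adjusted p was under 0.05. TGFB2, TGFBR2 and SKIL keep their side and their call, TGFBR1 spreads from 0.92 to 2.00, and SMAD4 and SMAD7 cross 0.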

How the data were processed

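RNA-seq of 6 PANC-1 samples was used, grouped by their titles. Libraries were made with a SMARTER mRNA-Seq kit. The authors deposited raw counts per gene and FPKM values, the latter being counts per length of gene and per library total. The submitters' processing notes name HISAT2 2.0.4 and StringTie 1.3.0. The counting program, annotation release and use of strand are not given in the sources used here, so genes overlapping on opposite strands are uncertain.

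Counts were scaled by TMM, filtered with filterByExpr (minimum count 10, minimum total count 15), and compared over 15089 genes by edgeR 4.0.16 (R 4.3.3, quasi-likelihood test). P-values were adjusted by Benjamini-Hochberg, and 0.05 was the threshold. SEs were derived from each log2 fold change and F value. The methods name limma, which was an alternative here since the main values were whole counts. CPM for the spread and likeness used a prior count of 2. Depth and 3 replicates per group limit the precision, and the common biological coefficient of variation was 16.5%. Ratios were taken from the FPKM values and tested with scipy 1.17.1. The fit was also run on counts simulated from its own means and dispersions. Far fewer genes were changed there than were called in the data, so that run does not cover a change this widespread.

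Alternatives were a replicate block, omission of 1 sample at a time, no filter, a filter of 10 counts or more in all samples, DESeq2 size factors, total count scaling, Wald p-values of DESeq2 1.42.0, limma 3.58.1 on voom values and on log2(FPKM + 1) and log2(FPKM + 0.1) where the mean FPKM was 1 or more, and an adjusted p under 0.01. The genes described, the lists and the ratios were chosen from general knowledge with earlier results of these data known. Beside the 9 members, the called genes with the 3 largest absolute log2 fold changes in each direction of each list were named, and the 3 genes most alike to the member with the smallest adjusted p. Promoter windows came from RefSeq (GRCh38.p14), with all 9 members matched by symbol, taking the window at the MANE Select start. Other experiments of the study were not analysed here. Some listed genes were counted in their lists but are not reported here by name.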

Additional observations from a re-analysis of the deposited data

How the results depend on the processing

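TGFB2, TGFBR2 and SKIL were called with the same sign under each alternative named in the processing summary, and the members counted as higher and lower stayed at 2 and 1 except without si-NC replicate 2 (3 higher). Of the log2 fold changes of single genes, 498 values kept direction and side of the threshold, 37 lost the call, 1 gained it and 4 turned sign. Those 4 were not called: SMAD4 without si-NC replicate 1 (0.065), si-METTL16 replicate 1 (0.0006) or si-METTL16 replicate 2 (0.02), within -0.20 to 0.065 over the left-out samples, and SMAD7 without si-METTL16 replicate 2 (0.0267, range -0.16 to 0.0267). The log2 ratio of SMAD7 to SMAD3 ranged from -0.14 to 0.0495 and turned sign in that same case. At an adjusted p under 0.01, 8 wider pathway genes were lower. Between SMAD2 and SMAD4, 1 gene was lower with no low count filter and 1 at an adjusted p under 0.01, and 2 were higher with at least 10 counts in every sample and on voom values. With 1 sample left out, 1 to 2 of these genes were higher and 1 to 3 lower, and 16 to 18 wider pathway genes were higher and 10 to 13 lower. The cause of these shifts was not tested, but each such fit has fewer samples. The groups share replicate numbers. Deviations of same-numbered samples correlated at 0.0253 to 0.0371 across genes, too weakly to pair them, although 6 of 6 samples correlated best with their own number in the other group. With the replicate number as a block, 5013 genes were called in all, the members called were 2 higher and 1 lower, the wider genes 22 and 14, and the genes between SMAD2 and SMAD4 1 and 3. Of the named genes, SMAD9 (adjusted p = 0.0765) and TRAF6 (0.0625) lost their calls with the block in edgeR. The low counts of SMAD9 and SNAI2 and the spread of TGFBR1 between samples limit the precision of their values.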

Other observations

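Genes that followed TGFBR1 over the 6 samples were looked for after its scatter was seen, among tested genes at or above the median level. Within a group, the SD of log2 CPM of TGFBR1 was above that of 99.5% (si-NC) and 99.2% (si-METTL16) of those genes. How many scatter as widely in both groups at once was not counted. Over the 6 samples, the log2 CPM of ZNF286A, a zinc finger gene, followed that of TGFBR1 most closely (Pearson's r = 0.9801). ZNF286A had 181, 730 and 247 counts in si-NC and 745, 318 and 943 in si-METTL16. Replicate 2 again lay on the far side of its companions in both groups, an order that choosing by the highest r favours. HCG18 (0.9793) and ATAD3B (0.9655) came next with a much smaller range, from 459 to 698 counts in HCG18 and from 470 to 684 in ATAD3B. None of the 3 was called. The 6 points share libraries and depth, so these values are a description.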
